A study of Mus musculus with 6 samples.

Results

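The genes that fold, modify, sort and dispose of secreted proteins in the endoplasmic reticulum (ER) were followed in small intestinal crypts of mice with and without Fpr2 in the intestinal epithelium. The set was a list of 47 gene symbols chosen by function: chaperones, disulfide isomerases, the translocon, ER-associated degradation and the unfolded protein response. By symbol, 45 of the 47 were found among the 17526 genes of the table, and all 45 were among the 12943 genes with enough counts to be tested. The listed symbols Ero1l and Ero1lb had no row of that name. RefSeq gives them as older names of Ero1a and Ero1b, whose values are given beside the members without being counted. The 3 floxed control libraries are labelled crypt_flox, with the genotype WT and mice named Fpr2f/f, which carry floxed Fpr2 alleles. The 3 knockout libraries are labelled crypt_vko, from mice named Fpr2VKO with Fpr2 knocked out in the intestinal epithelium. The labels give no Cre driver, age, sex or strain, and are silent on whether each library is a separate animal. The p-values thus measure library-to-library spread, possibly technical. Fpr2 itself was not analysed here, so the genotypes were not checked on the targeted gene.

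Each library held between 11108511 and 16859902 estimated counts. The labelled tissue was checked on marker lists. The 11 epithelial markers summed to 10593 to 14909 normalised counts (CPM) in every library, while the list of fibroblast and smooth muscle markers, of which 9 of 10 were in the table, summed to 2.85 to 6.75 CPM.

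Proteins bound for secretion enter the ER through the Sec61 translocon, lose their signal peptide, and are folded by chaperones such as BiP (Hspa5) and GRP94 (Hsp90b1), by the sugar-binding chaperones calnexin and calreticulin, and by protein disulfide isomerases. Proteins that fail to fold are drawn back through the membrane and degraded, which is called ER-associated degradation. When unfolded proteins accumulate, the sensors IRE1, PERK and ATF6 start the unfolded protein response, which raises the transcription of folding and degradation genes. In the crypt this machinery is best known from Paneth and goblet cells, which secrete antimicrobial proteins and mucus in bulk.

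The members differed widely in level. Per kilobase of exon, the mean over the 6 libraries was highest for P4hb, a disulfide isomerase, at 501 CPM per kb, followed by Calr at 361, Pdia3 at 247, Ssr2 at 204 and Hsp90b1 at 165 CPM per kb. It was lowest for Derl3 at 2.19, Trib3 at 2.36 and Ern1 at 3.52 CPM per kb. The 45 members together took 0.963%, 0.988% and 0.785% of all counts in the floxed control libraries 1 to 3, and their share in knockout libraries 1 to 3 was 1.11%, 0.948% and 0.977%. The groups overlapped, with means of 0.912% ± 0.111 (SD, n = 3) and 1.01% ± 0.0883 (SD, n = 3). Outside the 50 most abundant genes the order of the means turned, to 1.24% ± 0.0615 (floxed control) and 1.21% ± 0.125 (knockout).

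Across the members, the fitted log2 fold change of knockout over floxed control was negative for 33 and positive for 12. Its median was -0.20, beside -0.01 over all tested genes. The 7 roles differed in their medians. The median was 0.20 for the 2 lectin chaperones, -0.01 for the 5 disulfide bond enzymes, -0.03 for the 9 chaperones and -0.19 for the 12 genes of the translocon and signal peptidase. It was -0.39 for the 8 genes of ER-associated degradation, -0.48 for the 7 stress sensors and transcription factors and -0.54 for the 2 retrieval receptors. These differences between roles are a description and were not tested.

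No member passed edgeR's quasi-likelihood test at a Benjamini-Hochberg adjusted p under 0.05, a threshold that 0.0155% of all tested genes passed. At an unadjusted edgeR p under 0.05, 9 members were lower in knockout, where 9.63% of all tested genes were, and 1 was higher, where 4.09% were. DESeq2, run as an alternative, called 3 members lower (Dnajb9, Ern2 and Kdelr3) and 0 higher, against 2.4% and 0.299% of genes with an adjusted p. Leaving out floxed control 3, knockout 2 or knockout 3 ended all 3 DESeq2 calls. All genes that DESeq2 called lower then fell from 304 to 65, 84 and 97. Leaving out floxed control 1 also ended the 3 calls, while Ssr4 was called among 144 genes called lower. Leaving out knockout 1 raised the calls to 6, among 318 genes called lower in place of 304. The limma-voom fit called 0 members. In 10 members every knockout library lay below every floxed control, and 10.3% of all tested genes did so. In 3 members, Hsp90b1, Canx and Pdia3, every knockout library lay above, as in 6.99% of all tested genes. In the other 32 the groups overlapped. The shares at an unadjusted p and without overlap were thus 9 and 10 of 45 members in the lower direction, next to a background of about 1 in 10 genes.

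**Figure D1:**
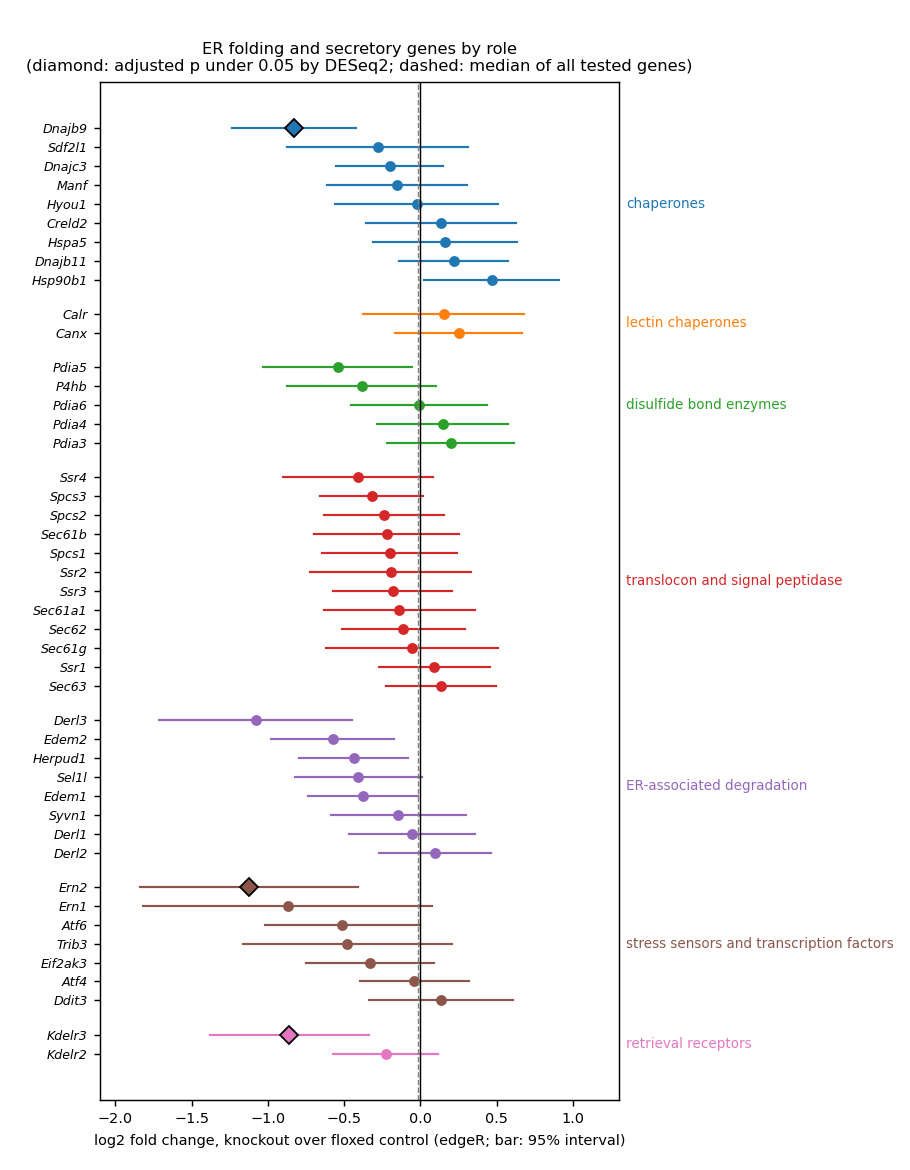
Log2 fold change of knockout over floxed control for each of the 45 members (edgeR fit on 3 libraries a group; bars are 95% intervals), grouped by role. Diamonds mark Dnajb9, Ern2 and Kdelr3, which DESeq2 called; the dashed line is the median of all tested genes at -0.01.

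The libraries within each group were not alike for these genes. In 23 of the 45 members, or 51.1%, floxed control 2 was the highest of the floxed controls and knockout 1 the highest of the knockouts, where 16.3% of all tested genes showed this order. Of the chaperones 7 of 9 showed it, as did both lectin chaperones, 3 of 5 disulfide bond enzymes, 6 of 12 translocon and signal peptidase genes, 4 of 8 degradation genes and 1 of 2 retrieval receptors. Of the 7 stress sensors and transcription factors 0 showed it. The same libraries stood apart on the clock genes, whose 14 listed members summed to 312 CPM in floxed control 2 and 299 CPM in knockout 1 against 487 to 553 CPM in the other 4 libraries. The listed clock genes did not all move the same way. Arntl was highest in floxed control 2 and knockout 1, at 27.8 and 34.0 CPM against 5.93 to 11.95 CPM elsewhere. Dbp was lowest there, at 6.82 and 4.45 CPM against 23.8 to 44.2 CPM, as was Per3, at 5.96 and 6.15 CPM against 22.6 to 33.9 CPM. Nr1d1, at 66.5 and 46.8 CPM, lay within the range of the other libraries. The part of the clock gene differences in these results was not tested.

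The median of the members moved with single libraries. Without floxed control 2 it was -0.0041, with 23 members negative, and edgeR then called Dnajb9, Ern2, Kdelr3 and Derl3 lower among 955 called genes of 13247 tested. Without knockout 1 the median was -0.29, with 19 members lower without overlap where 19.1% of all tested genes were, and without knockout 2 it was -0.12. Without both floxed control 2 and knockout 1, edgeR called 7 members lower among 920 called genes of 13030 tested, and the median was -0.14. Without floxed controls 1 and 3, which left floxed control 2 alone in its group, the median was -0.23.

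**Figure D2:**
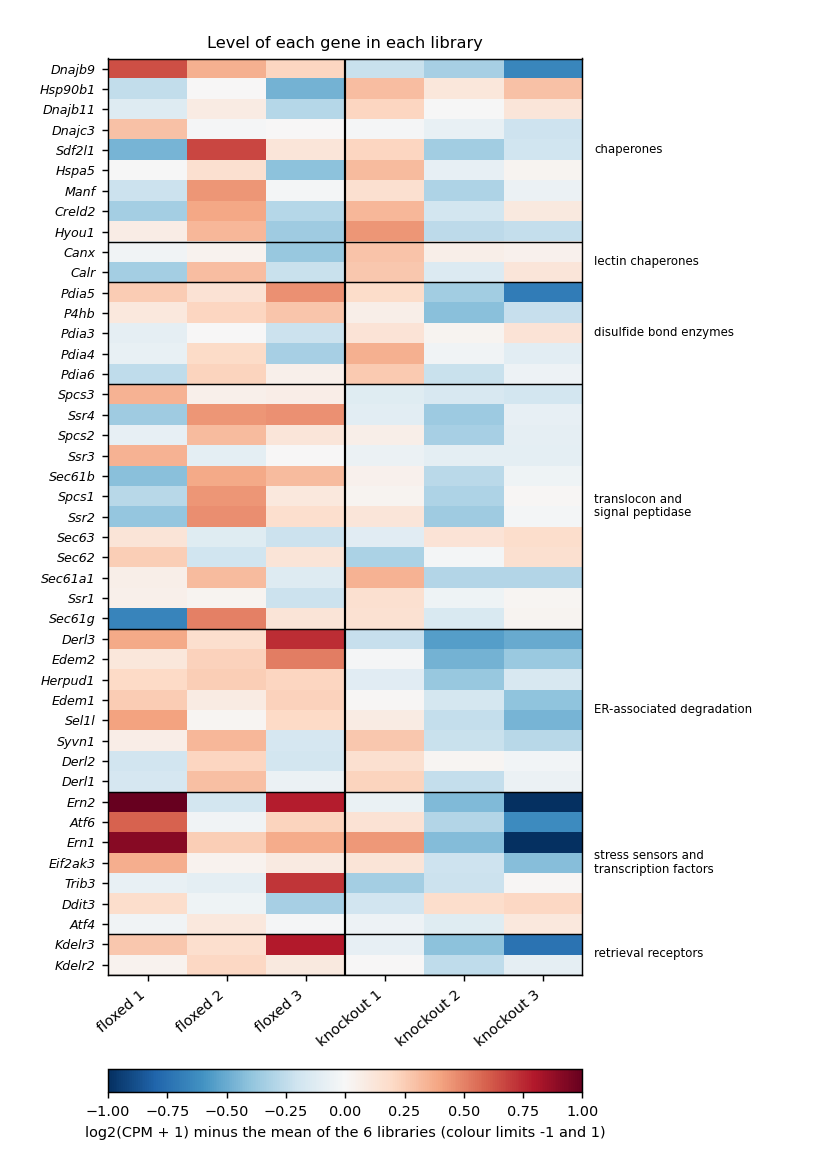
Each row is a member and each column a library; colour is log2(CPM + 1) minus that gene's mean over the 6 libraries, from -1 to 1. Many chaperone rows are reddest in floxed 2 and knockout 1, while the rows of Ern2, Derl3 and Kdelr3 are bluest in knockouts 2 and 3.

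Markers of several cell types moved with the groups. The 16 Paneth cell markers in the table summed to 84797, 82342 and 157510 CPM (floxed control) against 42930, 29881 and 27807 CPM (knockout), and all 16 were lower in knockout without overlap. The 18 goblet cell markers summed to 16179, 15566 and 23216 CPM against 14233, 9168 and 9358 CPM, with 11 lower and 1 higher without overlap. The 16 enteroendocrine markers summed to 949 to 1619 CPM against 505 to 728 CPM, with 13 lower without overlap. Of 12 stem cell markers 8 were lower without overlap, as were 7 of the 12 tuft cell markers tested, from 14 listed. Of 13 proliferation markers 6 were higher without overlap. The stem cell list summed to 2527 to 3318 CPM against 1795 to 2491 CPM, and the proliferation list to 947 to 1625 CPM against 1601 to 1817 CPM. Lymphocyte markers, 13 genes in the table, summed to 301 and 246 CPM in floxed controls 1 and 3 and to 71.2 to 91.3 CPM in the other 4 libraries. The B and plasma cell list summed to 669 to 1453 CPM over the 6 libraries, of which Cd74 alone made up 87.8%. Of its 9 tested genes 1 was lower and 0 were higher without overlap. The plasma cell gene Mzb1 reached at most 1.77 CPM. Jchain was at 21.2, 5.83 and 11.7 CPM (floxed control) against 5.86, 4.29 and 1.85 CPM (knockout). Cd79a was at 10.03, 0.590 and 8.46 CPM against 1.92, 1.07 and 1.57 CPM. Both overlapped, with DESeq2 adjusted p of 0.0159 and 0.338. The part of these marker differences in the members' values was not tested. In RNA from whole crypts, fewer cells of a type and less RNA per cell cannot be told apart.

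The promoters of the members were searched for motifs tied to the unfolded protein response. Members were chosen partly as genes of that response, so the shares below are not independent of the choice. The ER stress element (ERSE), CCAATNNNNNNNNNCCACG, is known as a binding site of ATF6 together with the CCAAT-binding factor NF-Y. It was searched on both strands in the 250 bases before each RefSeq start (GRCm38.p6), and was found for 9 of the 36 members with a promoter in the table, or 25%. Among all 27025 genes with a promoter the share was 0.13%, and among the 10385 of them that were tested it was 0.164%. Of 105 further ER pathway genes with a promoter, from the lists given below, 0 had a match. The 10 matches, in 9 genes, are shown because they mark the members whose levels are compared below. The fixed letters are in capitals, each match is read 5′ to 3′ on the strand given, and the spacer is in lower case.
Hspa5, chr2:34772025-34772043, plus strand: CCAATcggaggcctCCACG
Hsp90b1, chr10:86705638-86705656, minus strand: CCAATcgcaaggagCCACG
Hsp90b1, chr10:86705533-86705551, plus strand: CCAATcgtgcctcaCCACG
Dnajc3, chr14:118937827-118937845, plus strand: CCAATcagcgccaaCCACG
Creld2, chr15:88819520-88819538, minus strand: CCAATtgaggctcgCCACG
Calr, chr8:84847075-84847093, plus strand: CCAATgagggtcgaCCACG
Canx, chr11:50325800-50325818, minus strand: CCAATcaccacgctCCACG
Pdia6, chr12:17266491-17266509, plus strand: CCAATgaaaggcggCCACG
Syvn1, chr19:6046532-6046550, plus strand: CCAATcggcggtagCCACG
Derl3, chr10:75893242-75893260, minus strand: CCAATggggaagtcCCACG
Hsp90b1 holds 2 of the 10 matches, and the spacer differs in each.

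The second form of the element, ERSE-II (ATTGGNCCACG), was found in the promoter of Herpud1 alone among the members, and in 0.037% of all genes with a promoter. The unfolded protein response element TGACGTGG, known as a site of ATF6 and XBP1, was found for Kdelr3 (0.603% of all genes). The C/EBP-ATF response element TGATGCAA, known as a site of ATF4, was found for Herpud1 (0.918% of all genes). Among the 105 further ER pathway genes the shares were 0% for ERSE-II, 6.67% for TGACGTGG and 3.81% for TGATGCAA. Each of the shares was 2.78% among the 36 members. The first 3 motifs share the letters CCACG on one strand or the other, and no matches in the members overlapped. A match describes letters and is not a measured site. The 250 bases before the start are shown for Hspa5 and Hsp90b1, the most abundant chaperones with a match outside the lectin chaperones, and for Derl3, Herpud1 and Kdelr3, the degradation and retrieval genes with a match whose groups did not overlap. Each is read in the direction of its gene, with matches in capitals; a match on the opposite strand appears as its reverse complement.
Hspa5, chr2:34771840-34772089, plus strand: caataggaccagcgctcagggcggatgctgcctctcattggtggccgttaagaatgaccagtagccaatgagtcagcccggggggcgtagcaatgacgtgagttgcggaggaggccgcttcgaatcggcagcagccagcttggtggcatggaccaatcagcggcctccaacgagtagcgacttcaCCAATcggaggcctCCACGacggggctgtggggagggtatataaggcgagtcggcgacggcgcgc
Hsp90b1, chr10:86705445-86705694, minus strand: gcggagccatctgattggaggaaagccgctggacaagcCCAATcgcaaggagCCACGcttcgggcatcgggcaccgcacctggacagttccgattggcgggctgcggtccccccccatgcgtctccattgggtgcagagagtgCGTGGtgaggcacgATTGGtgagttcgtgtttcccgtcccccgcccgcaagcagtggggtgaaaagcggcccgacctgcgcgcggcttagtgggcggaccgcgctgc
Derl3, chr10:75893148-75893397, plus strand: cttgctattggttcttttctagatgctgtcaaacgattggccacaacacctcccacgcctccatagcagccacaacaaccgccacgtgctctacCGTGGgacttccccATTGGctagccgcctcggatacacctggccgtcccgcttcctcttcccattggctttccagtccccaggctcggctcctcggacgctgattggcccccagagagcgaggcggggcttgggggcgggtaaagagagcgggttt
Herpud1, chr8:94386179-94386428, plus strand: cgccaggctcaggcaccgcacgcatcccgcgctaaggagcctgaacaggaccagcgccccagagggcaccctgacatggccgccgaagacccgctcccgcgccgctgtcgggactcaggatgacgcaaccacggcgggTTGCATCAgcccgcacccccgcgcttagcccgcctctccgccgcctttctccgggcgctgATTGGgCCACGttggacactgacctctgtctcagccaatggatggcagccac
Kdelr3, chr15:79516158-79516407, plus strand: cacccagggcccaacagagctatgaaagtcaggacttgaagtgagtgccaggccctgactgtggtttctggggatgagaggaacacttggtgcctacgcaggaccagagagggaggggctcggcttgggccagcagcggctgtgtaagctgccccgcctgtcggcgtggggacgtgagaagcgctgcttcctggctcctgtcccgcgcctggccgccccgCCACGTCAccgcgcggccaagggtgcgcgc

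The 10 members with ERSE or ERSE-II split evenly, with 5 negative and 5 positive fold changes and a median log2 of 0.06. The 26 members with a promoter but neither element had 19 negative and 7 positive fold changes and a median of -0.23. The order with floxed control 2 and knockout 1 highest held for 8 of the 10 with an element and for 9 of the 26 without. Derl3 and Hsp90b1, which both hold ERSE, lay at opposite ends, at log2 -1.08 and 0.47. Promoters of Hyou1, Manf, Sec61a1, Ssr2, Spcs3, Derl1, Ern2, Atf6 and Kdelr2 were not analysed here. These 9 members had 9 negative fold changes and a median of -0.20, and the order held for 6 of them. These counts are descriptions with no test.

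**Figure D3:**
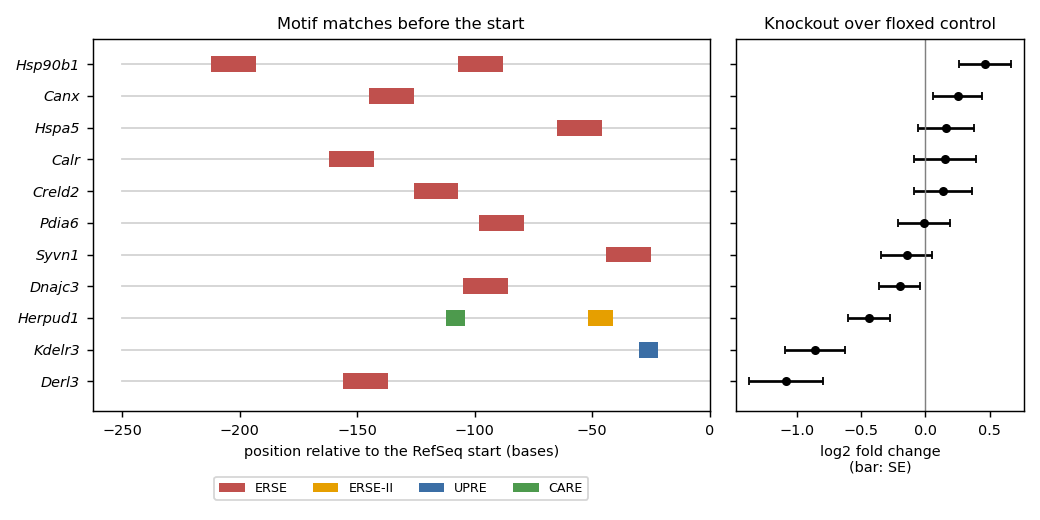
Left, positions of the motif matches in the 250 bases before the start of the 11 members that hold any; right, the log2 fold change of each, with bars of 1 SE (edgeR, 3 libraries a group). Members with ERSE, in red, lie on both sides of 0, from Hsp90b1 at 0.47 to Derl3 at -1.08.

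Among the chaperones, Dnajb9 had the lowest fold change. It encodes ERdj4, a co-chaperone of BiP that also acts in degradation, and lies at chr12:44205897-44210068 (GRCm38.p6, as are all positions here). In the order of their numbers, the floxed controls had 56.6, 46.1 and 41.7 CPM of Dnajb9 and the knockouts had 30.7, 28.3 and 22.4 CPM; the same order is used for every gene below. The groups did not overlap. The log2 fold change was -0.83 ± 0.18 (SE), with an edgeR adjusted p of 0.122 and a DESeq2 adjusted p of 0.0101. Between the libraries that stood apart, knockout 1 and floxed control 2, the log2 ratio of Dnajb9 with a pseudocount of 1 was -0.57. In the other 4 libraries the fitted log2 fold change was -0.95.

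Hsp90b1, which encodes GRP94, the ER form of heat shock protein 90, lies at chr10:86690841-86705444 and holds the ERSE matches shown above. Hsp90b1 was at 552, 656 and 471 CPM (floxed control) against 809, 709.5 and 801 CPM (knockout), and each knockout was above each floxed control. Its log2 fold change was 0.47 ± 0.20 (SE), with an edgeR unadjusted p of 0.0419 and an adjusted p of 0.344. DESeq2 gave an adjusted p of 0.110. Without floxed control 2 DESeq2 called it higher.

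Hspa5, which encodes BiP, the central ER chaperone and the usual readout of the unfolded protein response, was at 543, 610 and 410.3 CPM (floxed control) against 679, 514 and 554 CPM (knockout). The groups overlapped, and the log2 fold change was 0.16, with a 95% interval of -0.31 to 0.63. The other chaperones lay between -0.28 (Sdf2l1) and 0.22 (Dnajb11). Dnajc3, a BiP co-chaperone that also restrains the kinase PERK, was at 142, 115 and 116 CPM against 115, 110.3 and 100.5 CPM. Its groups did not overlap, by a margin under the spread within either group, and its log2 fold change was -0.20 ± 0.16 (SE). Hyou1, Manf and Creld2, further chaperones and targets of the unfolded protein response, had overlapping groups and log2 fold changes of -0.03, -0.15 and 0.14.

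**Figure D4:**
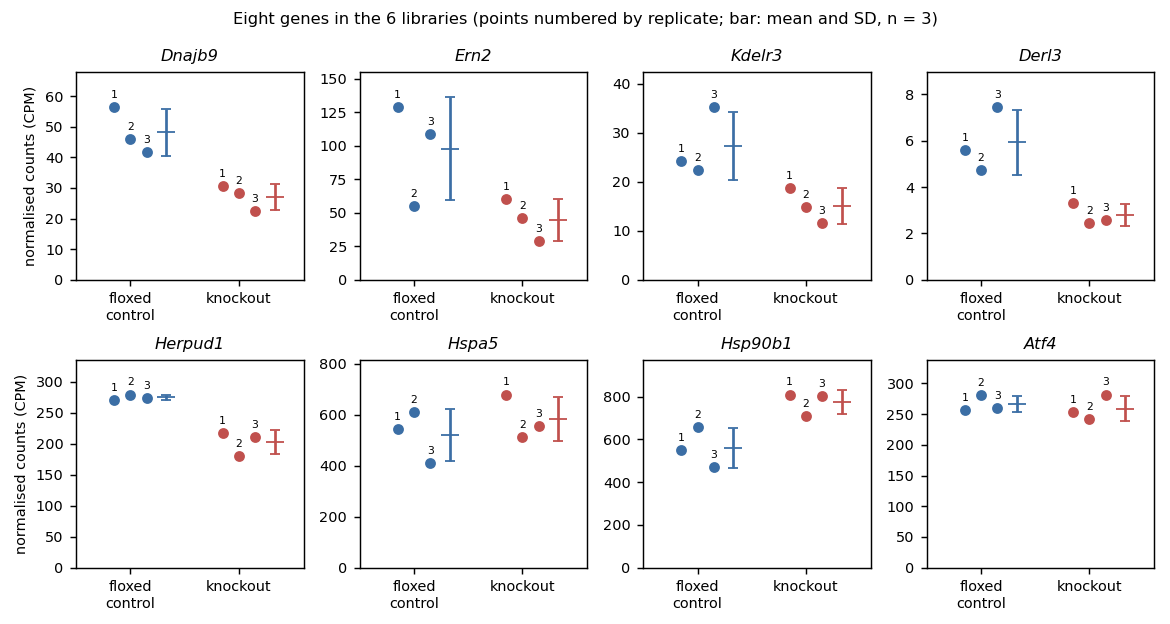
Normalised counts (CPM) of 8 members in each library, numbered by replicate, with the mean and SD of each group (n = 3) beside the points. Dnajb9, Kdelr3, Derl3 and Herpud1 are separated downward and Hsp90b1 upward, while Ern2, Hspa5 and Atf4 overlap.

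The lectin chaperones calreticulin and calnexin hold glycoproteins in the ER by their trimmed sugars. Canx was at 368, 387 and 291 CPM (floxed control) against 462, 394 and 390 CPM (knockout). Every knockout lay above every floxed control, by a narrow margin, and the log2 fold change was 0.25 ± 0.19 (SE; edgeR adjusted p = 0.607). Calr was at 809, 1268 and 880 CPM against 1239, 933 and 1115 CPM. Its groups overlapped, and its log2 fold change of 0.15 ± 0.24 (SE) turned to -0.15 without floxed controls 1 and 3.

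The disulfide bond enzymes split by gene. Pdia5 was at 71.6, 66.3 and 82.6 CPM (floxed control) against 68.2, 46.6 and 36.4 CPM (knockout). Knockout 1 lay within the floxed range, and the log2 fold change was -0.54 ± 0.22 (SE; edgeR adjusted p = 0.309). P4hb, which encodes the founding protein disulfide isomerase, was at 1517, 1636 and 1714 CPM against 1468, 1057 and 1204 CPM. Its groups did not overlap, and its log2 fold change was -0.38 ± 0.22 (SE; edgeR adjusted p = 0.477). Pdia3, the partner of the lectin chaperones, was at 727, 774 and 665 CPM against 850.1, 787 and 849 CPM, with a log2 fold change of 0.20 ± 0.19 (SE). Pdia4 and Pdia6 overlapped at 0.14 and -0.01. The ER oxidases, which recharge the isomerases, differed from each other in value. Ero1a ranged over 48.9 to 65.4 CPM (floxed control) and 56.3 to 66.1 CPM (knockout). Ero1b was at 21.6, 13.4 and 20.8 CPM against 12.3, 9.33 and 9.17 CPM, without overlap. Its log2 fold change was -0.85 ± 0.23 (SE), with an adjusted p of 0.160 by edgeR and 0.0485 by DESeq2. The difference between the oxidases was not tested.

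Of the 12 genes of the translocon, its associated TRAP complex (Ssr1 to Ssr4) and the signal peptidase, 10 had a negative fold change and 2 a positive fold change, from -0.41 to 0.13. Ssr4, a TRAP subunit, was at 105.0, 183 and 185 CPM (floxed control) against 125, 105 and 127 CPM (knockout). Floxed control 1 lay among the knockouts, and the log2 fold change was -0.41 ± 0.22 (SE; edgeR adjusted p = 0.447). Spcs3, a subunit of the signal peptidase, was at 107, 87.2 and 88.0 CPM against 77.0, 75.2 and 73.9 CPM. It was the single gene of this group without overlap, and its log2 fold change was -0.32 ± 0.15 (SE; edgeR adjusted p = 0.382). Ssr2, the most abundant of the 12, was at 285, 515 and 420.0 CPM against 406, 291 and 368 CPM. Its log2 fold change of -0.20 ± 0.24 (SE) was 0.02 without floxed control 2. The channel subunits Sec61a1, Sec61b and Sec61g lay at -0.14, -0.22 and -0.06, all with overlap.

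Of the 8 genes of ER-associated degradation, 7 had a negative fold change. In 4 every knockout lay below every floxed control, beside 10.3% of all tested genes. On all 6 libraries edgeR, DESeq2 and limma-voom each called 0 of the 8. Derl3, a derlin that forms part of the exit channel, lies at chr10:75893398-75895941 and was at 5.58, 4.72 and 7.48 CPM (floxed control) against 3.33, 2.47 and 2.57 CPM (knockout). The log2 fold change was -1.08 ± 0.29 (SE), with an adjusted p of 0.155 by edgeR and 0.0509 by DESeq2, and 0.0310 by edgeR without floxed control 2. Its relatives Derl1 and Derl2 had overlapping groups and log2 fold changes of -0.05 and 0.10.

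Herpud1, a membrane protein that assembles the degradation complex, lies at chr8:94386429-94395371 and holds the ERSE-II and C/EBP-ATF matches shown above. Herpud1 was at 271, 279 and 274 CPM in the floxed controls and at 218, 181 and 210.4 CPM in the knockouts. The log2 fold change was -0.44 ± 0.16 (SE; edgeR adjusted p = 0.266). Edem2, a mannose-trimming factor that marks glycoproteins for disposal, was at 101, 110.2 and 134 CPM against 92.8, 67.0 and 72.0 CPM, with a log2 fold change of -0.57 ± 0.18 (SE; edgeR adjusted p = 0.206). Edem1, of the same family, was at 119, 106 and 117 CPM against 100.4, 87.8 and 75.2 CPM, also without overlap. The ligase Syvn1 (HRD1) and its partner Sel1l overlapped, at -0.15 and -0.41.

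The stress sensors and transcription factors held the lowest fold change of all members, and none of the 7 had separate groups. Ern2 encodes IRE1 beta, the form of the sensor made in mucosal epithelia and known from goblet cells, and lies at chr7:122169893-122186239. The floxed controls had 129, 55.2 and 109 CPM of Ern2 and the knockouts had 59.9, 46.0 and 28.7 CPM. Floxed control 2 lay within the knockout range. The log2 fold change was -1.12 ± 0.32 (SE), with an adjusted p of 0.181 by edgeR and 0.0259 by DESeq2. Without floxed controls 1 and 3 it was -0.24. Between knockout 1 and floxed control 2 the log2 ratio was 0.12, and in the other 4 libraries the fitted log2 fold change was -1.67. The summed goblet, Paneth, tuft and stem cell markers were each also lowest in knockouts 2 and 3, while the enteroendocrine sum was not. In floxed control 2 the tuft sum was 152 CPM, against 325 and 290 CPM in floxed controls 1 and 3. Its goblet and Paneth sums, 15566 and 82342 CPM, lay close to the 16179 and 84797 CPM of floxed control 1. Its stem cell sum, 2527 CPM, lay close to the 2539 CPM of floxed control 3. The part of these markers in the Ern2 values was not tested.

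Ern1, which encodes the widely expressed IRE1 alpha, was at 48.4, 30.1 and 32.96 CPM against 34.5, 18.4 and 8.11 CPM, and its log2 fold change of -0.87 ± 0.42 (SE) had the widest error of the members. Atf6, the sensor that is cleaved into a transcription factor, was at 85.5, 54.9 and 66.1 CPM against 62.5, 45.8 and 36.2 CPM. Its groups overlapped, with a log2 fold change of -0.51 ± 0.23 (SE; edgeR adjusted p = 0.355). Without floxed control 2 and knockout 1 it was -0.88, with an edgeR adjusted p of 0.0392. Eif2ak3, which encodes PERK, lay at -0.33. Atf4, the transcription factor translated when PERK is active, was at 256, 281 and 261 CPM against 253, 241 and 282 CPM. Its log2 fold change was -0.04, with a 95% interval of -0.40 to 0.32. Its targets Ddit3 (CHOP) and Trib3 were at 8.86 to 13.3 CPM and 3.61 to 8.56 CPM over the 6 libraries, and both overlapped.

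The retrieval receptors carry escaped ER proteins back from the Golgi. Kdelr3 lies at chr15:79516408-79527739 and was at 24.2, 22.5 and 35.3 CPM (floxed control) against 18.8, 14.7 and 11.6 CPM (knockout). The groups did not overlap. The log2 fold change was -0.86 ± 0.24 (SE), with an adjusted p of 0.166 by edgeR and 0.0471 by DESeq2, and without floxed controls 1 and 3 it was -0.52. Kdelr2, a more abundant receptor at 90.8 against 15.01 CPM per kb, was at 169, 191 and 177 CPM (floxed control) against 166, 138 and 155 CPM (knockout). Its groups were separate by less than the spread within either, and its log2 fold change was -0.23 ± 0.16 (SE; edgeR adjusted p = 0.569).

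A further 128 symbols of the same pathway, in 6 lists, were examined in the same fit, and 124 of them were tested. Of these 94 had a negative and 30 a positive fold change, with a median of -0.13. The edgeR test called 0, and limma-voom called 0. At an unadjusted edgeR p under 0.05, 18 were lower and 1 was higher, beside 9.63% and 4.09% of all tested genes. DESeq2 called 8 lower and 0 higher, beside 2.4% and 0.299%. In 21 genes every knockout lay below every floxed control, and in 2 (Sec61a2 and Vcp) above, beside 10.3% and 6.99% of all tested genes. The median was lowest for the other stress regulators, at -0.28 over 21 genes, and highest for the other ER folding genes, at -0.07 over 28.

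In ER to Golgi transport, Tmed6, a cargo receptor of the p24 family, was at 29.1, 27.3 and 51.3 CPM (floxed control) against 14.3, 9.33 and 9.29 CPM (knockout). Its log2 fold change of -1.71 ± 0.28 (SE) had an adjusted p of 0.0680 by edgeR and 2.34e-06 by DESeq2. Sec24d, a subunit of the COPII coat, was at 132, 98.1 and 116 CPM against 85.1, 56.0 and 47.8 CPM, with a DESeq2 adjusted p of 0.0191. Surf4, another cargo receptor, overlapped at log2 -0.30. Among subunits of the oligosaccharyltransferase, which attaches N-linked sugars, Tusc3 was separate at log2 -0.42 (edgeR adjusted p = 0.368), while Ost4 and Rpn1 overlapped at -0.34 and -0.01.

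Among the other folding genes, Rcn1, a calcium-binding protein of the ER, was at 30.8, 21.7 and 37.8 CPM against 16.7, 14.4 and 13.4 CPM, and Fkbp11, a prolyl isomerase of secretory cells, was at 16.3, 19.4 and 21.7 CPM against 11.7, 7.88 and 9.96 CPM. Neither overlapped, and DESeq2 called both, at adjusted p of 0.00579 and 0.00785. Agr2, the disulfide isomerase of mucin-producing cells and one of the goblet markers, was at 1037, 1234 and 1626 CPM against 1050.2, 638 and 660.1 CPM. Its groups overlapped, with an adjusted p of 0.266 by edgeR and 0.0789 by DESeq2. In degradation Ube2g2 and Edem3 overlapped at -0.35 and -0.46, and Vcp, the ATPase that pulls proteins out of the ER, lay above in every knockout at 0.23. In targeting Srpr overlapped at -0.39, and Sec61a2, the second form of the channel, was at 25.7, 26.1 and 17.8 CPM against 29.5, 35.9 and 34.9 CPM (log2 0.52 ± 0.19 (SE); edgeR adjusted p = 0.259).

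Among the other regulators, Xbp1, the transcription factor spliced by IRE1, was at 257, 373 and 345 CPM (floxed control) against 301, 208 and 256 CPM (knockout). Its groups overlapped, and its log2 fold change was -0.35 ± 0.21 (SE; edgeR adjusted p = 0.493); these gene totals do not show splicing. Of the 5 CREB3 factors on the list, membrane-bound transcription factors related to ATF6, Creb3l1, Creb3l2 and Creb3l4 did not overlap, while Creb3 and Creb3l3 overlapped at log2 -0.07 and 0.03. Creb3l1 was at 137, 119.5 and 159 CPM against 103, 74.6 and 56.8 CPM, and Creb3l4 at 43.1, 34.1 and 64.2 CPM against 28.0, 24.6 and 22.04 CPM. DESeq2 called these 2, at adjusted p of 0.0297 and 0.0206. Atf6b, the relative of Atf6, overlapped at -0.21. Nupr1, a stress-induced chromatin protein that is also on the Paneth list, was at 169, 144 and 231 CPM against 92.8, 69.4 and 85.7 CPM, with an adjusted p of 0.0874 by edgeR and 8.12e-05 by DESeq2. Tmbim6, an inhibitor of IRE1 and the most abundant of this list, overlapped at -0.28.

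**Figure D5:**
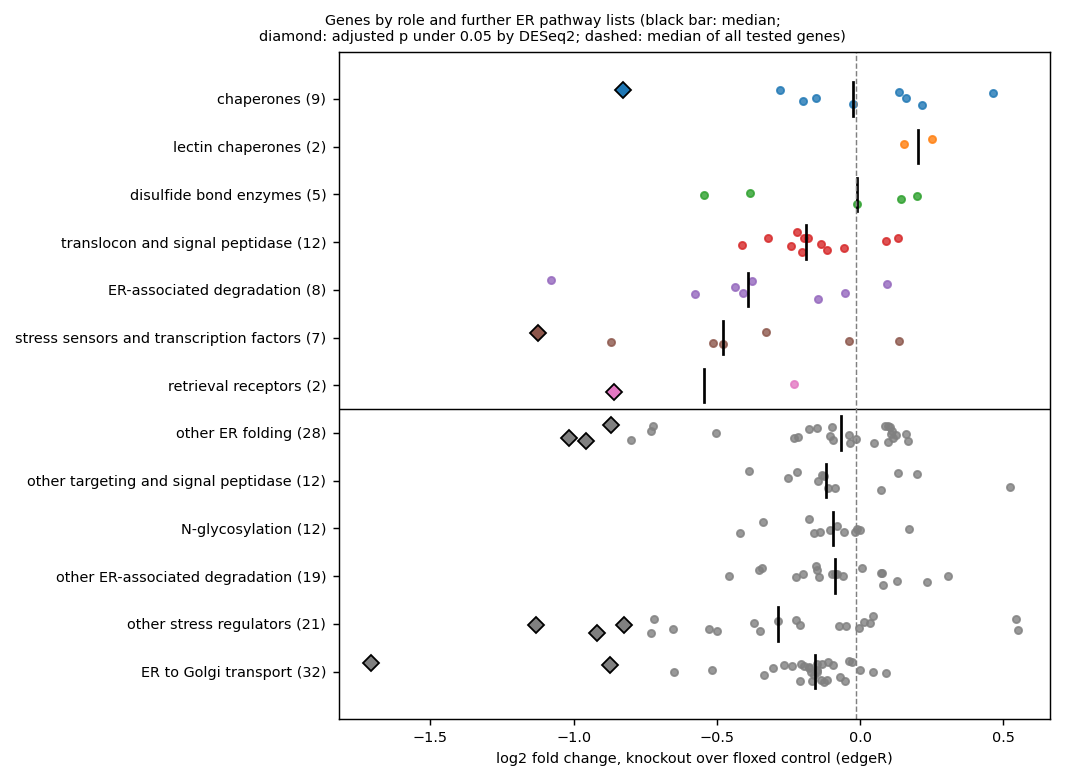
Log2 fold changes of knockout over floxed control (edgeR, 3 libraries a group) for the members by role, above the line, and for the 6 further pathway lists, below it; each point is a gene and numbers in brackets are genes tested. Black bars are medians, lowest for the retrieval receptors at -0.54, and diamonds mark the 3 members and 8 other genes that DESeq2 called.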

How the data were processed

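Total RNA of 6 crypt libraries was sequenced as mRNA with 50 bp single-end reads, per the labels' protocols. The authors deposited one estimated count per gene and library, without normalisation. In each library 31.1% to 35.2% of these estimated counts are not whole, so all were rounded for the count tests. The submitters' processing notes name mm10; the aligner, counter, annotation and strand are each not given in the sources used here. Reads of overlapping exons cannot be told apart, among them Hsp90b1 with an antisense pseudogene (415 of 4032 exon bases). Not analysed here were the formyl peptide receptors and the mitochondrial genome's genes.

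The main fit used edgeR 4.0.16 in R 4.3.3 (filterByExpr, TMM, robust glmQLFit, glmQLFTest) over all 6 libraries, with Benjamini-Hochberg adjustment over 12943 genes; the biological coefficient of variation was 20.3%. CPM are TMM-scaled, and SD is over n = 3. DESeq2 1.42.0 left 251 genes without an adjusted p, and they stay out of its counts. limma was 3.58.1. The tests were tested on simulated data. RefSeq (GRCm38.p6, the assembly of mm10) held 17473 of the gene IDs and gave positions and promoters; exon lengths are unions of GENCODE M21 exons. No libraries were duplicates. Counting errors are covered only through the spread between libraries, and reads carried no molecular identifiers.

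The members, lists and alternatives were chosen with earlier results of these data known. Named genes were members called by edgeR or DESeq2, in each role or list the 2 with the smallest edgeR p and the 1 with the highest mean CPM, and Xbp1, Agr2, Creb3l1 and Atf6b. All other genes given with values, Hspa5, Dnajc3, Pdia3, Edem1 and Ern1 among them, were chosen after their values were seen. Alternatives were other scalings, filters, DESeq2, limma-voom, thinning to the smallest library, the replicate number as a block, and libraries left out. Added after the data were seen were DESeq2 under the same alternatives and counts with Ero1a and Ero1b.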

Additional observations from a re-analysis of the deposited data

How the results depend on the processing

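The median of the members stayed negative in all alternatives run, between -0.29 (without knockout 1) and -0.0041 (without floxed control 2). No scaling moved the median of all genes by 0.1. With one library left out, edgeR called 0 to 4 members lower and 0 to 9 other pathway genes, among 0 to 955 genes called of 13061 to 13247 tested. Of the members 9 to 19 were separate downward and 3 to 7 upward. The shares of all tested genes were 9.62% to 21.7% downward and 8.7% to 20.3% upward. DESeq2 then called 0 to 6 members and 2 to 13 other pathway genes, while 65 to 840 of all genes were called lower. Without floxed control 2 and knockout 1, edgeR called 7 members and 14 other pathway genes, DESeq2 9 and 18, and 19 members were separate downward and 9 upward. All genes called lower by DESeq2 then numbered 730 in place of 304, and 28.9% and 27% of all tested genes were separate downward and upward. Without floxed controls 1 and 3, which left floxed control 2 alone in its group, 18 members were separate downward and 6 upward. So were 27.9% and 30.9% of all tested genes. Smaller groups separate more easily by construction. DESeq2 on all libraries called 3 members and 8 other pathway genes, and edgeR with no filter beyond 1 count called 2 of the latter. The difference in the members' share of counts, 0.101 percentage points, was -0.0342 outside the 50 most abundant genes. Calr turned to -0.15 without floxed controls 1 and 3. Atf4 ranged from -0.10 (without knockout 3) to 0.013 (without knockout 2) with one library left out, was 0.0096 without floxed control 2, and was 0.022 without both floxed control 2 and knockout 1. With one library left out Ssr2 ranged from -0.37 (without floxed control 1) to 0.018 (without floxed control 2), and it was -0.48 without floxed controls 1 and 3. The cause of these changes was not tested.

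The labels do not say whether the replicate numbers pair the libraries. Deviations from the group means correlated at -0.19, -0.35 and 0.12 for same-numbered libraries, and at -0.21 to 0.49 for different-numbered ones. With 3 libraries a group, these correlations cannot settle whether there was a pairing. With the replicate block, edgeR called 39 genes in place of 2, of which 0 were members and 2 were other pathway genes. DESeq2 with the replicate block called 2 members and 5 other pathway genes, while 171 of all genes were called lower in place of 304. Derl3 and Trib3 had the lowest normalised counts of the members, with SE of 0.29 and 0.31. The SE were wider for Ern1 and Ern2, at 0.42 and 0.32. The part of depth in these errors was not tested.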

Other observations

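Of the further thiol enzymes on the ER folding list, Qsox1 and Txndc5, chosen after their values were seen, were lower in every knockout than in every floxed control. Dnajc10 and Agr2 overlapped at log2 -0.50 and -0.73, and Tmx3, Txndc12, Erp44 and Tmx1 overlapped at 0.17, 0.13, 0.11 and 0.09. Qsox1, a secreted sulfhydryl oxidase, was at 330.3, 288 and 401 CPM in the floxed controls and at 228, 176 and 154 CPM in the knockouts (log2 -0.87 ± 0.21 (SE); adjusted p = 0.130 by edgeR and 0.00553 by DESeq2). Txndc5, an ER thioredoxin-domain protein, was at 668, 645 and 946 CPM against 620.1, 376 and 301 CPM (log2 -0.80 ± 0.28 (SE); adjusted p = 0.249 by edgeR and 0.0813 by DESeq2).

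Other genes without overlap, chosen in the same way, included Tmed3, a p24 cargo receptor, at log2 -0.65, Creb3l2 at -0.73 and Wfs1, the wolframin gene, at -0.65, with edgeR adjusted p of 0.181, 0.218 and 0.1996. The COPII coat gene Sec31a was also separate, at 415, 404 and 397 CPM against 370.0, 350.3 and 364 CPM, a log2 fold change of -0.17 with an edgeR adjusted p of 0.721. Ppp1r15a, Sesn2, Arf4, Tram1, Mcfd2, Ube2j1 and Srp68 were lower without overlap too, between log2 -0.53 (Sesn2) and -0.11 (Srp68).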
